A study of Mus musculus with 2 samples.

Results

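The genes described here mostly encode parts of the motile cilium axoneme, the microtubule shaft that makes a cilium or sperm tail beat. They were chosen by symbol among protein-coding genes: the dynein heavy chains (Dnah), the radial spoke proteins (Rsph), the cilia- and flagella-associated proteins (Cfap), Drc1, Drc7, Ccdc153 and the transcription factor Foxj1. The rule found 56 genes among 22028 protein-coding and 55536 annotated genes, namely 15 Dnah, 8 Rsph, 29 Cfap and 2 Drc genes with Foxj1 and Ccdc153. It also asked for the intermediate chains under the symbols Dnai1 and Dnai2, which the annotation used here does not carry, so none of them is included. The 56 genes lie on 17 chromosomes. Not all encode axoneme parts: Foxj1 is a regulator, and Cfap298 and Cfap300 are dynein arm assembly factors. Another 6 Cfap genes, Cfap36 among them, were grouped as other.

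RNA was measured by total RNA-seq in the left cerebral cortex of female B6CASTF1/J mice, first-generation hybrids of the C57BL/6J and CAST/EiJ strains, at 4 days of age. Both libraries, replicate 1 and replicate 2, belong to this 1 group, and no genotype, treatment or tissue was contrasted. The labels number them as biological replicates of separate females but give both the same donor identifier, so the spread between them may be technical. Each received 300 ng of RNA and ERCC spike-ins, which are synthetic RNAs of known amount. The rounded expected counts of all annotated genes came to 29310517 for replicate 1 and 28844648 for replicate 2. Where a gene has no count, up to 3 counts remain possible, which is 0.102 ppm of replicate 1 and 0.104 ppm of replicate 2. Cortical neuron markers were abundant; the neuronal tubulin gene Tubb3 had 1316 TPM in replicate 1 and 1227 TPM in replicate 2.

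A motile axoneme is a ring of doublet microtubules around a central pair. Outer and inner arm dyneins on each doublet pull on the next one, radial spokes carry signals from the central pair to the arms, and the nexin-dynein regulatory complex holds the doublets together. In the brain, ependymal cells that line the ventricles bear many such cilia, choroid plexus epithelial cells bear tufts of cilia, and ependymal cells are still maturing from radial glia soon after birth. Foxj1 is the forkhead factor that switches on motile cilium genes, and RFX factors, which bind a motif called the X-box, act with it. Neurons and radial glia carry a primary cilium, which has no dynein arms, radial spokes or central pair.

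Promoter sequence was looked at first, because Foxj1 and RFX factors act there. RefSeq windows on GRCm38.p6, from 250 bases before to 50 after a transcription start, were found for 44 of the 56 genes and searched on both strands. Those of Foxj1, Rsph1 and Rsph4a were not among them. In 33 of the 48 windows of members, the first transcribed bases matched the start of an annotated transcript. The X-box consensus was present in 6 of the 44 genes, or 13.6%, against 1.75% of 27025 genes with a window. Unlike the members, those genes were not limited to protein-coding ones. The shorter motif GTTGCC, which is part of many X-boxes, was present in 16 of 44 (36.4%), against 14.1% of all genes, and 4 of the 6 genes with a full X-box also counted there. The forkhead motif GTAAACA was present in 3 of 44 (6.82%), against 4.05% of all genes. The matches below are shown in capitals, on the gene's strand, with up to 7 flanking bases. The X-box letters differ between genes, and those of Cfap44, Cfap45, Cfap58 and Cfap99 match the consensus on the opposite strand. The last sequences are the forkhead match of Cfap43 and the GTTGCC match of Ccdc153, shown because these genes were called different between the libraries.
Cfap298, nearer X-box: tttgactGTTGCCCCTGGCAACagccact
Cfap298, farther X-box: ggttttgGTTGCCCGGGCAACagctact
Cfap44, X-box: gagggacGTTGCTATGGCAACcgcagta
Cfap45, X-box: ttcttggGTTGCTATGGTAACgcgtc
Cfap58, X-box: cgtggcgGTTGCCAGGCGACcgaagac
Cfap99, X-box: gcgcggcGTTGCTAGGTGACggcgccc
Cfap43, forkhead motif: tacaggtGTAAACAgtggcat
Ccdc153, GTTGCC motif: ttttccaGTTGCCtggacaa

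The Cfap298 matches began 69 and 188 bases before the RefSeq start, and the sequences shown lie on the minus strand at chr16:90934897-90934925 and chr16:90935017-90935044. The Cfap44 match began 27 bases before the start (chr16:44394765-44394792, plus strand) and that of Cfap45 19 bases before it (chr1:172521104-172521129, plus strand). Those of Cfap58 and Cfap99 began 59 and 35 bases before their starts, at chr19:47937646-47937672 and chr5:34288623-34288649 on the plus strand. By the GENCODE M21 annotation the matches of Cfap44 and Cfap58 fell outside the gene, while those of Cfap298, Cfap45 and Cfap99 fell in an exon, since annotated transcripts start farther upstream. The forkhead match of Cfap43 (chr19:47837403-47837423, minus strand) fell in an intron of a longer transcript. The GTTGCC match of Ccdc153 (chr9:44240518-44240537, plus strand) fell outside the gene. In Rsph3b the X-box lay after the start. The genes with a full X-box spanned the range of levels, from Cfap298 with 19.4 and 17.8 TPM in replicates 1 and 2 to Cfap99 with 0.13 and 0.19 TPM. A letter match is a description and not a binding site.

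As a group the axoneme genes were present at low levels. TPM is a level scaled by transcript length and library depth, and a gene was called detected at 1 TPM or more in both libraries. By that measure 31 of 56 genes were detected (55.4%), against 13137 of 22028 protein-coding genes (59.6%). Of the 56, 34 reached 1 TPM in replicate 1 and 32 in replicate 2. The median was 1.48 TPM in replicate 1 and 1.29 TPM in replicate 2 (mean 1.38 ± 0.134, SD, n = 2), against 3.93 and 4.26 TPM over all protein-coding genes. Mean levels lay under 0.5 TPM for 13 genes, between 0.5 and 1 TPM for 10, between 1 and 5 TPM for 22, between 5 and 10 TPM for 5 and above 10 TPM for 6. Every one of the 56 genes had at least 1 count in each library.

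The summed signal came mostly from a few genes. The 56 genes summed to 258 TPM in replicate 1 and 260 TPM in replicate 2, and took 329 ppm of the counts in each. The 6 genes above 10 TPM gave 62.2% of the members' TPM in replicate 1 and 63.0% in replicate 2, but 38.4% and 37.5% of their counts. The 15 heavy chains, which have the longest coding sequences, gave 8.10% and 8.80% of the TPM and 26.7% and 28.6% of the counts in replicates 1 and 2.

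**Figure D1:**
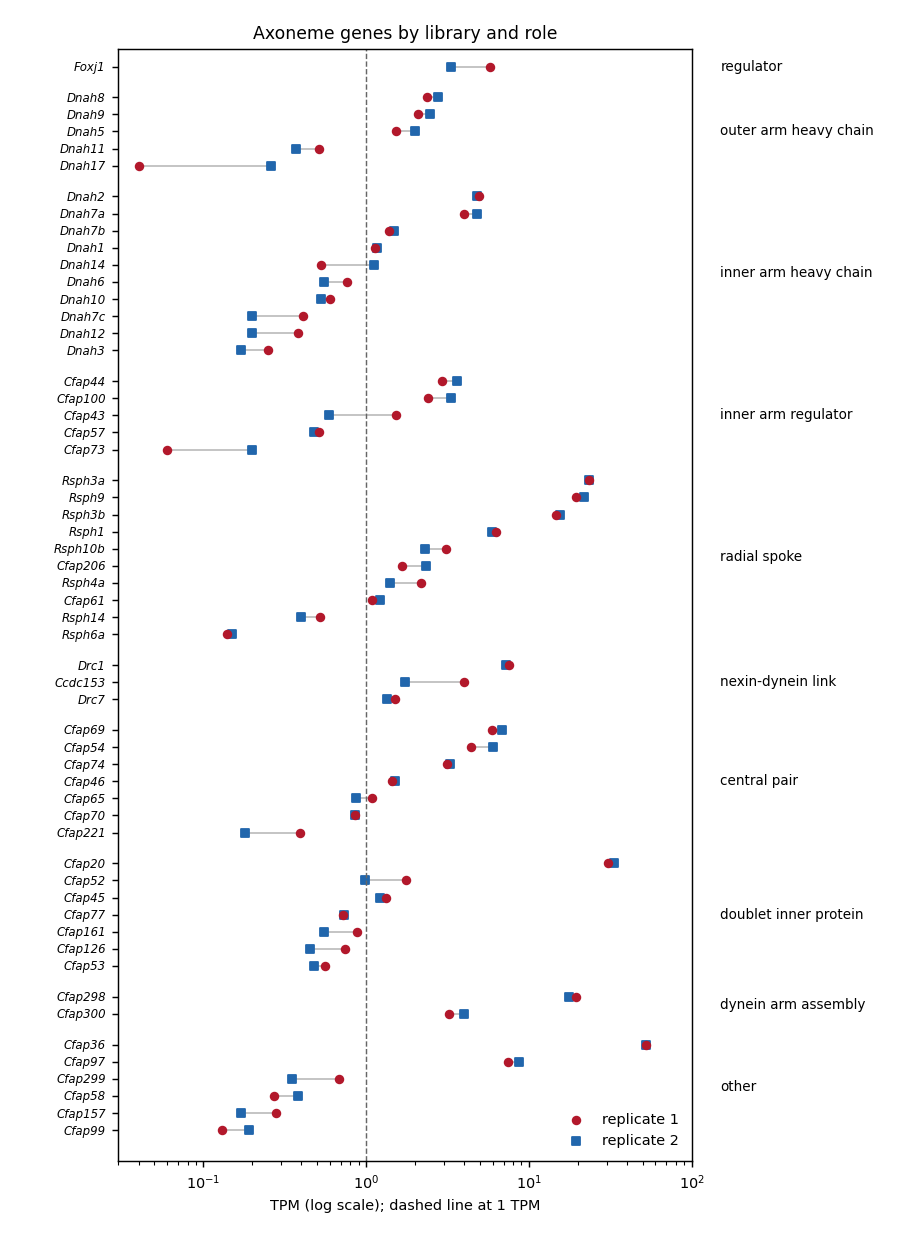
TPM of each of the 56 genes in replicate 1 (red circles) and replicate 2 (blue squares) on a log axis, grouped by role, with a dashed line at 1 TPM. The highest genes are Cfap36 at 52.7 and 52.2 TPM and Cfap20 at 30.8 and 33.5 TPM in replicates 1 and 2, and heavy chains lie at or under 4.92 TPM.

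Cfap36 and Cfap20 were the most abundant members. Cfap36, a partner of the small GTPase Arl3, had 52.7 TPM in replicate 1 and 52.2 TPM in replicate 2. Cfap20, a protein of the inner junction between the doublet tubules, had 30.8 and 33.5 TPM. Cfap298, an assembly factor for dynein arms, had 19.4 and 17.8 TPM, and Cfap97 had 7.49 and 8.71 TPM. The other assembly factor in the set, Cfap300, was lower at 3.21 and 4.00 TPM. None of these genes was called different between the libraries.

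Foxj1 (chr11:116330704-116335399, minus strand), the regulator of the set, had 5.81 TPM from 285 counts in replicate 1 and 3.30 TPM from 154 counts in replicate 2. It has 1 annotated transcript, so its level does not rest on a split between transcripts.

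The outer arm heavy chains, which give the beat most of its force, were low but readable. Dnah8 had 2.36 TPM in replicate 1 and 2.78 TPM in replicate 2. Dnah9, a heavy chain of the distal part of cilia, had 2.09 and 2.48 TPM. Dnah5, a heavy chain whose loss causes primary ciliary dyskinesia, had 1.53 TPM from 461 counts and 1.99 TPM from 572 counts. At gene level these 3 genes lay above 1 TPM in both libraries. For Dnah8, however, transcripts with the longest coding sequence had 0.45 TPM in replicate 1 and 0.43 TPM in replicate 2. Dnah11, which is needed in the proximal part of cilia, had 0.51 and 0.37 TPM, and Dnah17, a sperm outer arm chain, had 0.04 and 0.26 TPM from 10 and 16 counts.

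Of 10 inner arm heavy chains, 4 were detected. Dnah2, a chain of the inner arm known as f, had 4.92 TPM in replicate 1 and 4.83 TPM in replicate 2, whereas Dnah10, its partner in that arm, had 0.60 and 0.53 TPM. Dnah7a had 3.98 and 4.80 TPM, and Dnah7b 1.38 and 1.49 TPM. Dnah7c, the remaining gene of this family, had 0.41 and 0.20 TPM. Dnah1, whose loss causes sperm tail defects, had 1.14 and 1.17 TPM. Dnah14 lay on both sides of the threshold with 0.53 and 1.11 TPM, from 40 and 52 counts. The rest stayed below 1 TPM in both libraries, Dnah6 with 0.76 and 0.55 TPM, Dnah12 with 0.38 and 0.20 TPM and Dnah3 with 0.25 and 0.17 TPM.

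For many of the heavy chains, gene-level TPM rested largely on shorter transcripts. The longest coding sequences of the 15 genes run between 11880 and 14193 bases, and transcripts that carry them took 81.5% of heavy chain counts in replicate 1 and 85.2% in replicate 2. Because TPM divides by length, they took much less of the TPM. For Dnah2 they held 76.2% of the counts and 20.5% of the TPM in replicate 1, and 75.3% and 24.8% in replicate 2. For Dnah1 the shares of TPM were 21.7% and 19.7%, since Dnah1-202, a processed transcript with no coding sequence, held the remainder. Dnah8 has 22 annotated transcripts, and its full-length form held 19.1% and 15.5% of the TPM. In the first table the mean share over the libraries was higher for Dnah5 (100%), Dnah7c (89.0%), Dnah12 (77.6%), Dnah9 (59.1%) and Dnah6 (54.8%).

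Counting only the transcripts with the longest coding sequence, 4 heavy chains reached 1 TPM in each library. Dnah5 had 1.53 TPM in replicate 1 and 1.99 TPM in replicate 2 from its 1 annotated transcript. Dnah7a had 1.60 and 1.77 TPM, Dnah9 1.23 and 1.47 TPM and Dnah2 1.01 and 1.20 TPM by this measure. The range of Dnah5 thus spanned that of Dnah7a and lay above that of Dnah2, although both of these were higher than Dnah5 at gene level. Dnah3 and Dnah17 had 0 TPM in their longest coding transcripts in both libraries in the first table. In the second table this also held for Dnah17, but Dnah3 had 0.145 TPM in replicate 1 and 0 TPM in replicate 2.

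**Figure D2:**
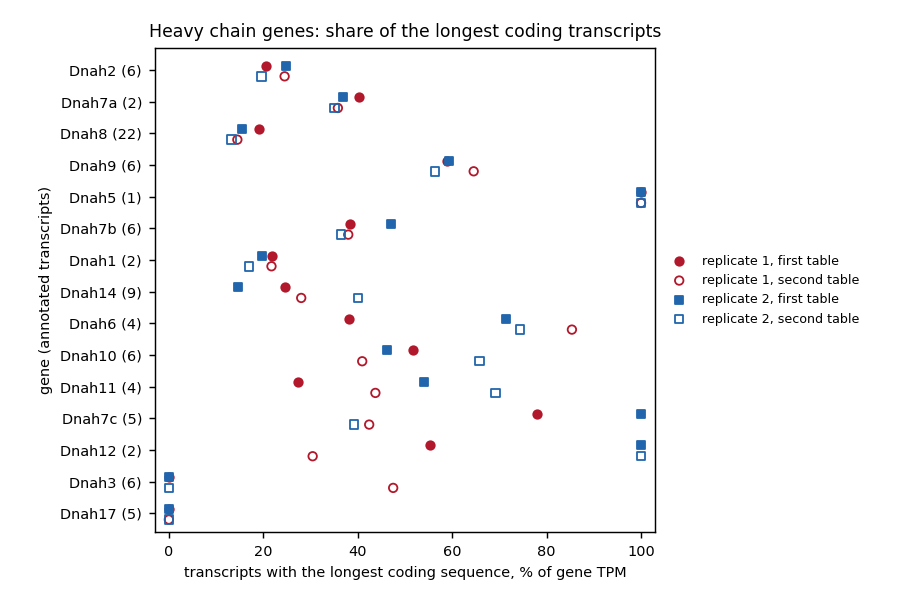
Share of each Dnah gene's TPM held by the transcripts with the longest coding sequence, in percent, for replicate 1 (red circles) and replicate 2 (blue squares), from the first table (filled) and the second table (open); the number of annotated transcripts is in brackets. Dnah5 is at 100% because it has 1 transcript, while Dnah8, Dnah1 and Dnah2 stay low in both libraries and tables, and genes with few counts such as Dnah12 differ widely.

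Radial spoke genes held the largest sum of any structural role, 72.5 TPM in replicate 1 and 74.4 TPM in replicate 2, and 8 of 10 were detected. Rsph3a and Rsph3b encode spoke stalk proteins. Rsph3a had 23.4 TPM in replicate 1 and 23.5 TPM in replicate 2, and Rsph3b had 14.7 and 15.5 TPM. The spoke head genes were unequal: Rsph9 had 19.5 and 21.8 TPM, Rsph1 6.26 and 5.92 TPM, and Rsph4a 2.18 and 1.40 TPM. Rsph10b had 3.08 and 2.31 TPM. Rsph14, at 0.52 and 0.40 TPM, and Rsph6a, the spoke head gene of sperm, at 0.14 and 0.15 TPM, stayed below 1 TPM. Cfap206 and Cfap61, which sit at the base of the spokes, had 1.65 and 2.33 TPM and 1.09 and 1.21 TPM.

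The split between near-identical genes is uncertain. Rsph3a and Rsph3b shared 1389 stretches of 100 bases, 44.7% of those of Rsph3a and 46.1% of those of Rsph3b, so reads had to be divided between them. Their summed counts, which do not depend on that division, were 788 in replicate 1 and 731 in replicate 2. The dominant transcript of Rsph3a in every library and table was Rsph3a-206, a processed transcript without a coding sequence. Protein-coding transcripts held 15.5% and 10.4% of the TPM of Rsph3a in replicates 1 and 2 in the first table. In the second table they held 26.8% and 27.5%. Of the Dnah7 family, Dnah7a shared 19.1%, Dnah7b 14.3% and Dnah7c 23.9% of their stretches with other genes. Together the family had 624 counts in replicate 1 and 657 in replicate 2. Rsph10b shared 7.30% with Gm42421, a gene whose exons overlap it on the same strand. Exons of 23 members also overlap a gene on the opposite strand. Whether reads of such pairs were kept apart is not known, since the sources used here do not state a stranded count.

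All 3 genes of the nexin-dynein regulatory complex were detected. Drc1, a core subunit, had 7.57 TPM in replicate 1 and 7.25 TPM in replicate 2, and Drc7 had 1.5 and 1.35 TPM. Ccdc153, a further subunit and a marker of ependymal cells, had 3.99 TPM from 47 counts in replicate 1 and 1.73 TPM from 21 counts in replicate 2. Drc1 was thus level between the libraries while Ccdc153 was higher in replicate 1.

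Among central pair genes, Cfap69 had 5.92 and 6.83 TPM and Cfap54 had 4.4 and 6.0 TPM in replicates 1 and 2. Cfap74 had 3.15 and 3.29 TPM, and Cfap46 1.45 and 1.5 TPM. Cfap65 (1.08 and 0.87 TPM) and Cfap70 (0.85 and 0.86 TPM) lay near the threshold. Of 7 central pair genes, 4 were detected.

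Inner arm regulators and, apart from Cfap20, tubule-lining proteins were low. Cfap44, part of the tether of inner arm f, had 2.94 TPM in replicate 1 and 3.61 TPM in replicate 2, and its partner Cfap43 had 1.52 and 0.59 TPM. Cfap100, an inner arm regulator known from the alga Chlamydomonas, had 2.39 and 3.34 TPM, and Cfap73, its partner there, had 0.06 and 0.20 TPM from 1 and 3 counts. Of 7 proteins of the doublet lumen and junction, Cfap20 and Cfap45 (1.33 and 1.22 TPM) were detected. Cfap52 straddled the threshold at 1.76 and 0.99 TPM, and Cfap53, Cfap77, Cfap126 and Cfap161 had mean levels below 1 TPM.

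The libraries were compared gene by gene, as replicate 1 over replicate 2, to see which axoneme genes vary. An exact two-sided binomial test on rounded counts, with library sizes scaled by TMM and Benjamini-Hochberg adjustment over 18492 genes, compares these libraries and not conditions. Genes were called where the adjusted p was below 0.05 and the log2 ratio was 1 or more in size. Over all genes 0.535% were called higher and 2.41% lower in replicate 1, and 24.3% had an adjusted p under 0.05 at any size. Of the 56 members, 48 had a summed count of 20 or more and were tested. Of these, 2 were called higher in replicate 1, Ccdc153 and Cfap43, and 0 were called lower, with 8 past the adjusted p alone. The median log2 ratio of the 48 genes was 0.10, against -0.00 over all genes, with SDs of 0.42 and 0.47 log2 units. In 37 of the 48 the log2 ratio was within 0.5 of 0, a share that was not computed over all genes.

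The called genes rest on few counts. Ccdc153 (chr9:44240676-44247306, plus strand), with 47 counts in replicate 1 and 21 in replicate 2, had a count ratio of 2.25 (95% exact interval 1.32 to 3.96, adjusted p = 0.00938 by the exact binomial test). Cfap43 (chr19:47736857-47919287, minus strand), with 67 and 33 counts, had a ratio of 2.04 (1.33 to 3.20, adjusted p = 0.00444 by the same exact test). Its exons overlap those of Itprip on the same strand by 164 bases, and Itprip had 0.97 and 1.39 TPM in replicates 1 and 2. Both intervals reach below a 2-fold difference, and they cover counting error only. With library totals in place of TMM, Cfap43 was no longer called, at a log2 ratio of 0.99 against 1.02, and in the second table Ccdc153 was not (log2 ratio 0.59).

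Foxj1, at 285 counts in replicate 1 and 154 in replicate 2, had the smallest p of the set, with a ratio of 1.86 (1.52 to 2.28, adjusted p = 7.8e-09, exact binomial test), below the size needed for a call. Rsph4a, with 150 and 92 counts, had a ratio of 1.64 (1.26 to 2.15), Dnah6, with 184 and 128 counts, 1.45 (1.15 to 1.83), and Dnah7c, with 77.6 and 45.8 expected counts, 1.70 (1.17 to 2.51). These 4 genes and the called ones passed the adjusted p on the higher side. On the lower side were Dnah5, with 461 and 572 counts and a ratio of 0.810 (0.715 to 0.918), and Cfap69, with 258 and 350 counts and a ratio of 0.741 (0.628 to 0.873). At a lower bar of 0.58 log2 units, 5 members were called higher (Ccdc153, Cfap43, Dnah7c, Foxj1 and Rsph4a), against 0.930% of all genes. Cfap53 had the highest ratio of the 48, 2.44, but from 17 and 7 counts its interval ran from 0.962 to 6.96.

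**Figure D3:**
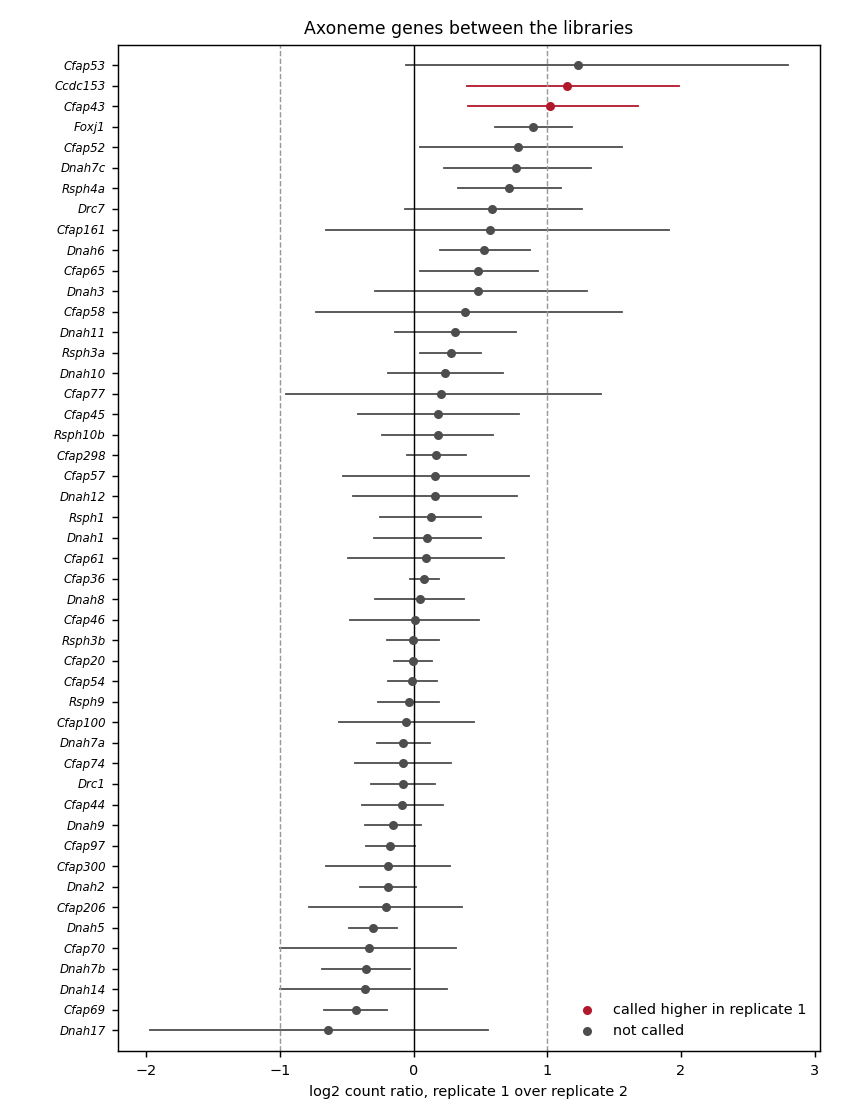
log2 count ratio, replicate 1 over replicate 2, of the 48 tested genes (points, with 0.5 added to each count) with 95% exact intervals (lines, nothing added), dashed lines at -1 and 1. Ccdc153 and Cfap43, in red, are called higher in replicate 1, and the abundant genes near the middle, such as Cfap36 and Cfap20, have short intervals around 0.

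Apart from Foxj1, ratios of counts summed by role lay between 0.891 and 1.09. Summed over the 10 inner arm heavy chains, 1495 counts in replicate 1 and 1499 in replicate 2 gave a scaled ratio of 1.00 (0.933 to 1.08). The 5 outer arm heavy chains had 1081 and 1219 counts and a ratio of 0.891 (0.821 to 0.968), in which Dnah5 has the most counts. The 10 radial spoke genes had 1596 and 1472 counts, with a ratio of 1.09 (1.01 to 1.17). The 7 central pair genes had 1109 and 1195 counts, with a ratio of 0.933 (0.859 to 1.01). The Dnah7 family as a whole had a ratio of 0.955, while Dnah7c alone was at 1.70 and Dnah7b, which did not pass the adjusted p, at 0.781 (0.621 to 0.980), and how the shared reads were divided between them was not tested.

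Choroid plexus and blood markers differed between the libraries by larger folds than the axoneme genes. Choroid plexus genes summed to 226 TPM in replicate 1 and 10.1 TPM in replicate 2, and 9 of 12 were called higher in replicate 1, with a median log2 ratio of 1.30. Ttr, which encodes the transthyretin that choroid plexus secretes, had 206 and 1.94 TPM and so made up most of the sum in replicate 1. Prlr, by contrast, was level at 0.91 and 0.94 TPM. Of the 12 genes, 9 reached 1 TPM in replicate 1 and 3 in replicate 2, and the defining factor Otx2 had 47 and 6 counts. All 5 blood genes were also called higher, at 477 and 62.9 TPM in sum. Neither list holds an axoneme member.

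Ependymal markers lay between. The 10 genes, of which Foxj1 and Ccdc153 are also axoneme members, summed to 25.04 TPM in replicate 1 and 16.66 TPM in replicate 2. Of 9 tested, 1 was called higher, Ccdc153 itself, and the median log2 ratio was 0.84, with log2 ratios from -0.39 to 1.26. Over the 7 tested markers that are not members, a subset chosen after the data were seen, the median was 0.50. Tmem212 had 1.25 and 0.53 TPM, Dynlrb2 1.95 and 0.91 TPM and Hdc 1.33 and 0.57 TPM, whereas Tm4sf1 had 3.98 and 4.26 TPM. The 8 radial glia genes had a median log2 ratio of 0.07 and the 6 cortical neuron genes 0.10, with none called. Of 7 sperm genes, 6 had 0 counts in both libraries. The part of choroid plexus, ependyma or blood in the differences of Foxj1, Ccdc153 and Cfap43 was not tested, and in bulk tissue fewer cells of a type and less RNA per cell cannot be told apart.

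**Figure D4:**
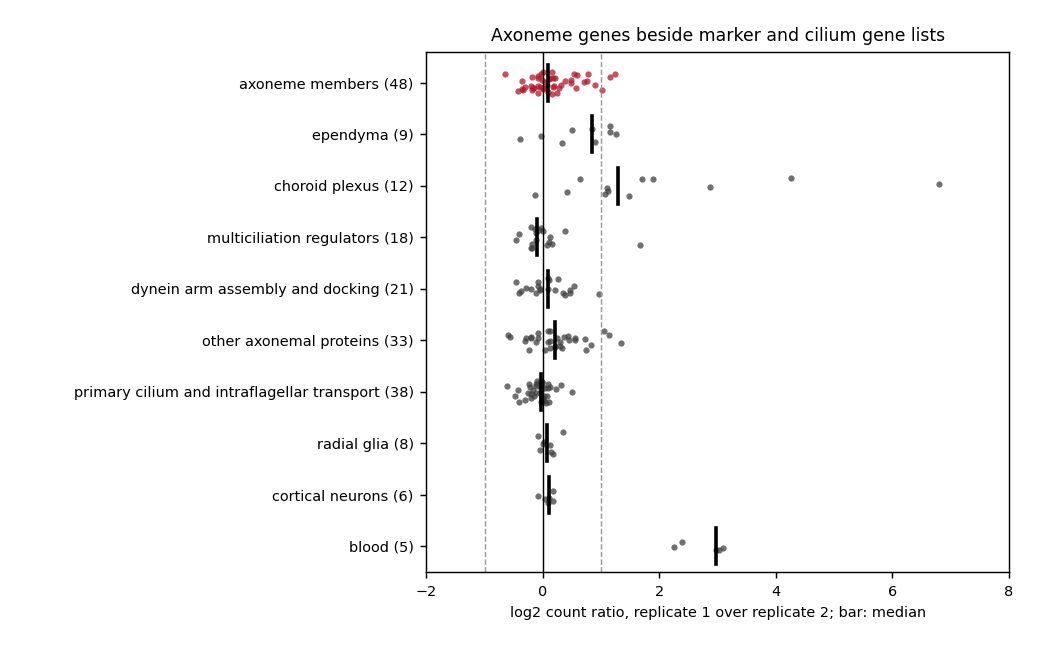
log2 count ratio, replicate 1 over replicate 2, of the tested axoneme genes (red) and of marker and cilium gene lists (grey), 1 point per gene, with the median as a black bar and the number of genes in brackets; points are spread vertically for sight only. The axoneme genes centre on 0.10, as do the cortical neuron genes, with radial glia at 0.07, while the choroid plexus list centres on 1.30 and the blood list on 2.97.

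Other genes of the motile cilium pathway were read in the same way. Of 20 multiciliation regulators, 13 were detected, with medians of 3.09 TPM in replicate 1 and 3.59 TPM in replicate 2. Tfdp1 (40.54 and 41.02 TPM), a partner of E2F factors, Rfx3 (27.6 and 41.4 TPM) and Rfx7 (25.3 and 27.1 TPM), both RFX factors, and the centrosome gene Cep63 (17.4 and 14.6 TPM) had the highest means over the libraries. Of the factors that commit cells to many cilia, Gmnc had 0.28 and 0.35 TPM from 15 and 21 counts, and Mcidas 0.23 and 0.14 TPM from 10 and 6 counts. In the second table Gmnc was higher, at 2.24 and 3.38 TPM. Of 18 tested, 1 was called higher in replicate 1, Cdc20b, with 20 and 6 counts, and the median log2 ratio was -0.09.

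Of 22 genes for dynein arm assembly and docking found in the tables, 13 were detected and none of 21 tested was called, with a median log2 ratio of 0.09. Pih1d1 (49.51 TPM in replicate 1 and 49.98 TPM in replicate 2), Ruvbl2 (30.4 and 29.9 TPM) and Ruvbl1 (19.0 and 20.5 TPM), chaperone partners used by many cells, were the highest. Ccdc39, which helps to set the spacing of dynein arms, had 14.70 and 20.97 TPM. Pih1d3 had 0 counts in both libraries.

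Among 40 other axonemal genes, 20 were detected, with medians of 1.27 and 0.975 TPM in replicates 1 and 2. Dnal1, a light chain of outer arms, had 30.5 and 30.7 TPM, Gas8, a nexin-dynein subunit, 19.2 and 23.2 TPM, Spef1 13.7 and 12.5 TPM and Dynlt1a 11.6 and 14.3 TPM. Wdr63, with 46 counts in replicate 1 and 22 in replicate 2, was among the genes called higher in replicate 1. The median log2 ratio of the 33 tested genes was 0.20.

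Genes of the primary cilium and intraflagellar transport, which also serve non-motile cilia, stood at higher levels. All 38 were detected, with medians of 12.7 TPM in replicate 1 and 13.8 TPM in replicate 2, against 1.48 and 1.29 TPM for the axoneme members. Kif3a (81.2 and 84.0 TPM) and Kif3b (53.1 and 54.0 TPM), motor subunits of transport along the cilium, Ift46 (53.0 and 55.3 TPM) and Arl3 (50.4 and 53.3 TPM) led the list. None of the 38 was called, and their median log2 ratio was -0.04.

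Levels depended on which deposited table was read. The second transcript table gave higher TPM than the first for 52 of 56 genes in both libraries, by a median factor of 1.57, close to the 1.51 of detected protein-coding genes. In 6 members the tables differed by at least 2-fold in the same direction in both libraries, against 9.32% of 17666 protein-coding genes. Ccdc153 had 12.4 TPM in replicate 1 and 9.85 TPM in replicate 2 in the second table, where a retained-intron transcript was dominant. Cfap74 had 11.4 and 13.6 TPM there, Cfap45 3.80 and 3.20 TPM, and Cfap53 1.73 and 2.33 TPM. Dnah17 had 2.29 and 3.88 TPM, and Dnah7c 1.03 and 0.824 TPM.

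Coding transcripts held most but not all of the members' TPM. Protein-coding transcripts held 72.5% in replicate 1 and 71.7% in replicate 2 in the first table. Of 51 members with several transcripts, 35 had the same dominant transcript in both libraries, and 22 had the same one in both libraries and both tables. The dominant transcript was annotated as a type other than protein-coding in 12 members in each library. These types include transcripts marked for decay, such as Cfap44-207. Dnah7a-202 and Dnah1-202, processed transcripts, Cfap44-207, annotated as lacking a stop codon, and Drc7-203, which retains an intron, were dominant in every library and table. In the 5 genes with 1 transcript, Foxj1, Dnah5, Rsph4a, Cfap99 and Cfap73, this split does not arise.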

How the data were processed

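Each library had a gene table, a transcript table (the first table) and a transcript table from another quantifier (the second table). Per the deposited file descriptions, the assembly was mm10 with GENCODE M21, the first table came from transcriptome alignments and the second from the reads; no quantifier or version is named there, and CAST/EiJ variants were not modelled. The deposited expected counts are estimates in which the authors' quantifier divided reads shared between features; they were rounded to whole numbers for testing. In the deposited tables TPM is relative to effective length and the library's total, FPKM, as deposited, to effective length and counted reads, and the deposited percent values are a transcript's share of its gene's TPM.

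Symbols and biotypes were read from GENCODE M21 as carried in the second table; spike-ins, phiX and numbered entries stayed out of library sizes. Library sizes were scaled by TMM (edgeR 4.0.16, R 4.3.3; factors 0.989 and 1.01). Genes whose counts summed to 20 or more were tested with an exact binomial test, two-sided (scipy 1.17.1), with Benjamini-Hochberg adjustment. The test takes the place of edgeR's quasi-likelihood test because 1 group has no contrast. It was checked on simulated counts that held counting error only. That check therefore does not show how the test behaves under further spread between libraries. log2 ratios had 0.5 added to each count; ratios with exact 95% intervals had nothing added. Intervals cover counting error only, and no molecular identifiers are named. DESeq2 1.42.0 size factors, library totals and spike-in totals were alternatives. RefSeq promoter windows matched by symbol. Python 3.11.15, numpy 2.4.6, pandas 2.3.3 and matplotlib 3.10.9 were used.

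The members and lists were chosen with earlier results of these data known. Named were Foxj1, Ccdc153, Drc1, Drc7, every Dnah and Rsph gene, the 10 Cfap genes highest in TPM, the 5 with the largest log2 ratio, called members, members that differed between tables, and the 4 highest and called genes of each pathway list. A result that this rule names is not reported here. Other members were named for their role after their values were seen. Of the listed symbols, 4 matched no gene (Dnaaf4, Heatr2, Lrrc48 and Pierce1).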

Additional observations from a re-analysis of the deposited data

How the results depend on the processing

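The number of detected members stayed within 1.5 times of 31 at a threshold of 0.5 TPM, in the second table and in either library alone. The median level of 1.38 TPM became 2.46 TPM in the second table and 0.898 as FPKM. The 2 members called higher became 1 with library totals only (Ccdc153), 1 in the second table (Cfap43) and 5 at a log2 ratio of 0.58; DESeq2 size factors, spike-in totals and no count minimum gave Ccdc153 and Cfap43, and none gave a lower call. The protein-coding share of TPM was 73.0% in the second table. Among single members, 48 of 48 kept their side of an adjusted p of 0.05 with DESeq2 size factors and with library totals, 47 with spike-in totals, where Rsph3a gained it, and 43 in the second table, where 42 had the same sign. There Ccdc153 and Dnah7c lost an adjusted p under 0.05 and Rsph3a, Dnah7b and Cfap52 gained one, and no member past it changed sign. Library scaling moved the median log2 ratio of all genes between -0.04 and 0.03. No paired analysis was possible because the series has 1 group. Leaving out a library leaves no ratio, so no such value was computed. The median biological coefficient of variation was 0.177 over 46 members and 0.0902 over 17742 genes, which were not matched for count level. For Dnah8 it was 0.141, against 0.149 on the trend fitted by count level over all genes. For Foxj1 it was 0.171, against 0.125 on that trend. The difference between members and all genes was not tested. Depth limits the 8 members with fewer than 20 summed counts, which were not tested.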
